A study of Mus musculus with 18 samples.

Results

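The genes described here are 8 genes of the germline, out of 19938 genes with a probe of their own on the array: Tdrd12, Mael and Asz1 of the piRNA pathway, the RNA-binding proteins Ddx4 and Dazl, Sycp3 of the synaptonemal complex, and the testis genes Taf7l and Tex101. They were chosen by name, as genes that are often silenced by promoter methylation in somatic cells, and each had 1 single-symbol probe. Their signal was followed across all 12 groups to see which of them were on in iPSCs and mouse ESCs (mESCs) and off in the sorted intermediates. The study reprogrammed mouse embryonic fibroblasts that carry the ROSA26 reverse tetracycline transactivator and a Nanog-GFP reporter, using a piggyBac transposon with a doxycycline-responsive polycistronic cassette. In the high-KLF4 cassette (OK+9MS) the Klf4 cDNA is the long form, and in the low-KLF4 cassette (OKMS) it is the short form. An mCherry marker is linked to either cassette.

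The mCherry+ cells of each cassette were sorted after 2, 4, 8 and 18 days in 1 µg/mL doxycycline, with 2 arrays per cassette on day 8 and 1 array per cassette on each of the other days. They still expressed the cassette when they were collected, and the cultures taken on day 18 had been passaged on day 8. The other groups were iPSC clones A10 and H10 from high-KLF4, clones A7 and A9 from low-KLF4, 2 arrays of mESCs from a single line with the Nanog-GFP reporter, and 2 arrays of primary keratinocytes, the epithelial cells of the epidermis, cultured from pups at postnatal day 2. This made 18 Affymetrix Mouse Gene 1.0 ST arrays, and with at most 2 in a group their number bounds how precise any estimate can be. The deposited values are signal intensities after robust multiarray averaging (RMA). Differences are given on the log2 scale with their standard error (SE) or 95% confidence interval, from limma, a linear model fitted to every probe. A gene was called higher or lower at an adjusted p under 0.05, with Benjamini-Hochberg adjustment over 23410 probes.

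Germ cells keep transposons silent with piRNAs, small RNAs that are loaded onto PIWI proteins and guide both target cleavage and DNA methylation. Tudor domain proteins such as TDRD12, the helicase DDX4, MAEL and the mitochondrial protein ASZ1 act in germ granules where piRNAs are made and used. In somatic cells many genes of this kind carry methylated CpG-dense promoters, and in mouse ESCs several are also held down by a complex of MGA, MAX, L3MBTL2, E2F6 and PCGF6 that binds E boxes (CACGTG) and E2F sites.

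The bases before the start sites are shown for the 5 genes that were on in iPSC clones and mESCs and off on days 2 to 8, and for Asz1, which was on in no group, so that their CpGs can be compared. Each sequence is the 250 bases before an annotated RefSeq start (GRCm38.p6), 5′ to 3′ on the strand of the gene, with every CpG in capitals. For Ddx4 this start lies inside the annotated locus (chromosome 13, 112598333 to 112652633), so its whole window falls within the gene. The windows of Tdrd12 and Taf7l overlap the upstream ends of their loci (35537784 and 134476505).
Tdrd12 (chr7:35537745-35537994, minus strand): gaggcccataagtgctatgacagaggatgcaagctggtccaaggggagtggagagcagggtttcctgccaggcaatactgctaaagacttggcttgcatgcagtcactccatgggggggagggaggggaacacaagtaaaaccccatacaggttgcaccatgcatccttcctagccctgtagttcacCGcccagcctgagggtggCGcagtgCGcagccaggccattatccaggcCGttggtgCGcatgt
Mael (chr1:166238745-166238994, minus strand): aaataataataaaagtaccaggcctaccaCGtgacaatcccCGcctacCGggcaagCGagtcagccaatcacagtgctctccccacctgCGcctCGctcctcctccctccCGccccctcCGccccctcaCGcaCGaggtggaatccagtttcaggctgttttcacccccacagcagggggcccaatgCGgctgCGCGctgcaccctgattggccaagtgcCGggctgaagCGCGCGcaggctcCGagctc
Ddx4 (chr13:112652311-112652560, minus strand): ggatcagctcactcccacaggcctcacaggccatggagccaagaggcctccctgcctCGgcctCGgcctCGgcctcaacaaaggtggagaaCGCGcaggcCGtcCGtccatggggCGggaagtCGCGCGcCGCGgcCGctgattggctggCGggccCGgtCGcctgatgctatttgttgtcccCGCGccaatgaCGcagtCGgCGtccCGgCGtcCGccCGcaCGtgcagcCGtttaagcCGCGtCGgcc
Dazl (chr17:50293621-50293870, minus strand): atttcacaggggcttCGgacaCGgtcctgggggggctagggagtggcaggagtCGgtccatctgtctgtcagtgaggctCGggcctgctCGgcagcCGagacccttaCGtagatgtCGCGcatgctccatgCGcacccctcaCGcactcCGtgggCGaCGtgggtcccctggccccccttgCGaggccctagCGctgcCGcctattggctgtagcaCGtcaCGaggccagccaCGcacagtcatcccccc
Sycp3 (chr10:88459337-88459586, plus strand): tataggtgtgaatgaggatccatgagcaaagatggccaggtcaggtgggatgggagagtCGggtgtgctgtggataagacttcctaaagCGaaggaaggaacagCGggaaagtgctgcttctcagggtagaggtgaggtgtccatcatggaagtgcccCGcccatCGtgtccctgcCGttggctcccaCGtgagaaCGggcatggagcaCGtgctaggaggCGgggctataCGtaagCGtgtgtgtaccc
Asz1 (chr6:18109062-18109311, minus strand): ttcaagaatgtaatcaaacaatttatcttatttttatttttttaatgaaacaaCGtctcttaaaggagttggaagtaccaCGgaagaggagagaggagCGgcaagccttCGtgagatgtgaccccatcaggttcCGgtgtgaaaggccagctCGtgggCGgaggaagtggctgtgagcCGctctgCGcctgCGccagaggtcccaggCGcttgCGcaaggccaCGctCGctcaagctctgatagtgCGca

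All 8 genes matched a window. Over 32841 such windows of mouse genes the median was 6 CpGs. Ddx4 had 31 CpGs in its window, a count reached by 5.19% of windows, and Dazl had 20 (18% of windows). Mael had 18 CpGs, Asz1 15, Taf7l and Tex101 14 each, and Sycp3 12, a count that 33.5% of windows reached. Tdrd12 had 5, close to the median, and 6 in its other annotated window. The 5 genes that were on in clones thus had between 5 and 31 CpGs, and the other 3 genes, with 14 or 15, lay inside that range. The letters CACGTG, which read the same on both strands and contain a CpG, were found in 6.02% of all windows. They stood once in the windows of Ddx4 (29 to 24 bases before the start), Mael (223 to 218) and Taf7l (49 to 44), and at 2 places in that of Sycp3 (64 to 59 and 43 to 38). GGCGGGA on either strand, an E2F-type motif, was in 9.75% of windows and in those of Ddx4 (137 to 131) and Mael (143 to 137), with no overlap with the E boxes. Positions are counted from the start that defines each window, which for Ddx4 is not the upstream end of the locus. These are matches of letters in the RefSeq sequence, and methylation or binding was not measured.

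No detection call came with the signals, so a level for signal without transcript was taken from 1245 probes of olfactory, vomeronasal and taste receptor genes. A gene was called on in a group when every array of the group exceeded the 95th percentile of these probes, which lay between 68.4 and 84.8 on the 18 arrays. Of all probes, 66.0% to 69.3% exceeded it on single arrays. By that level, 5 of the 8 genes (Tdrd12, Mael, Ddx4, Dazl and Sycp3) were on in both iPSC groups and in mESCs and off in keratinocytes and in all sorted groups of days 2, 4 and 8. The same pattern was found for 0.868% of all genes. Dazl no longer showed it with the 99th percentile or the array median as the level. Taf7l and Asz1 were on in 0 groups. Tex101 was on in both iPSC groups and mESCs but also in low-KLF4 cells of day 4.

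The marker genes of the labelled cell types were also read. The 10 pluripotency markers were all above the receptor level in iPSC clones and mESCs, with summed signals of 42610 to 43530 in clones and 40998 to 45077 in mESCs, against 5688 to 6746 on day 8 and 809 to 847 in keratinocytes. Of the keratinocyte markers, Krt5 read 12142 and 11903 in the keratinocytes, whereas Krt1, Krt10 and Krt15 read 109 to 144 there. On day 8 the second array of each cassette had lower signals for 12 of 12 fibroblast markers (median -1.80 on the log2 scale in high-KLF4 and -1.93 in low-KLF4). The 8 germline genes had median differences of -0.0007 (high-KLF4) and 0.04 (low-KLF4) between the same arrays.

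**Figure D1:**
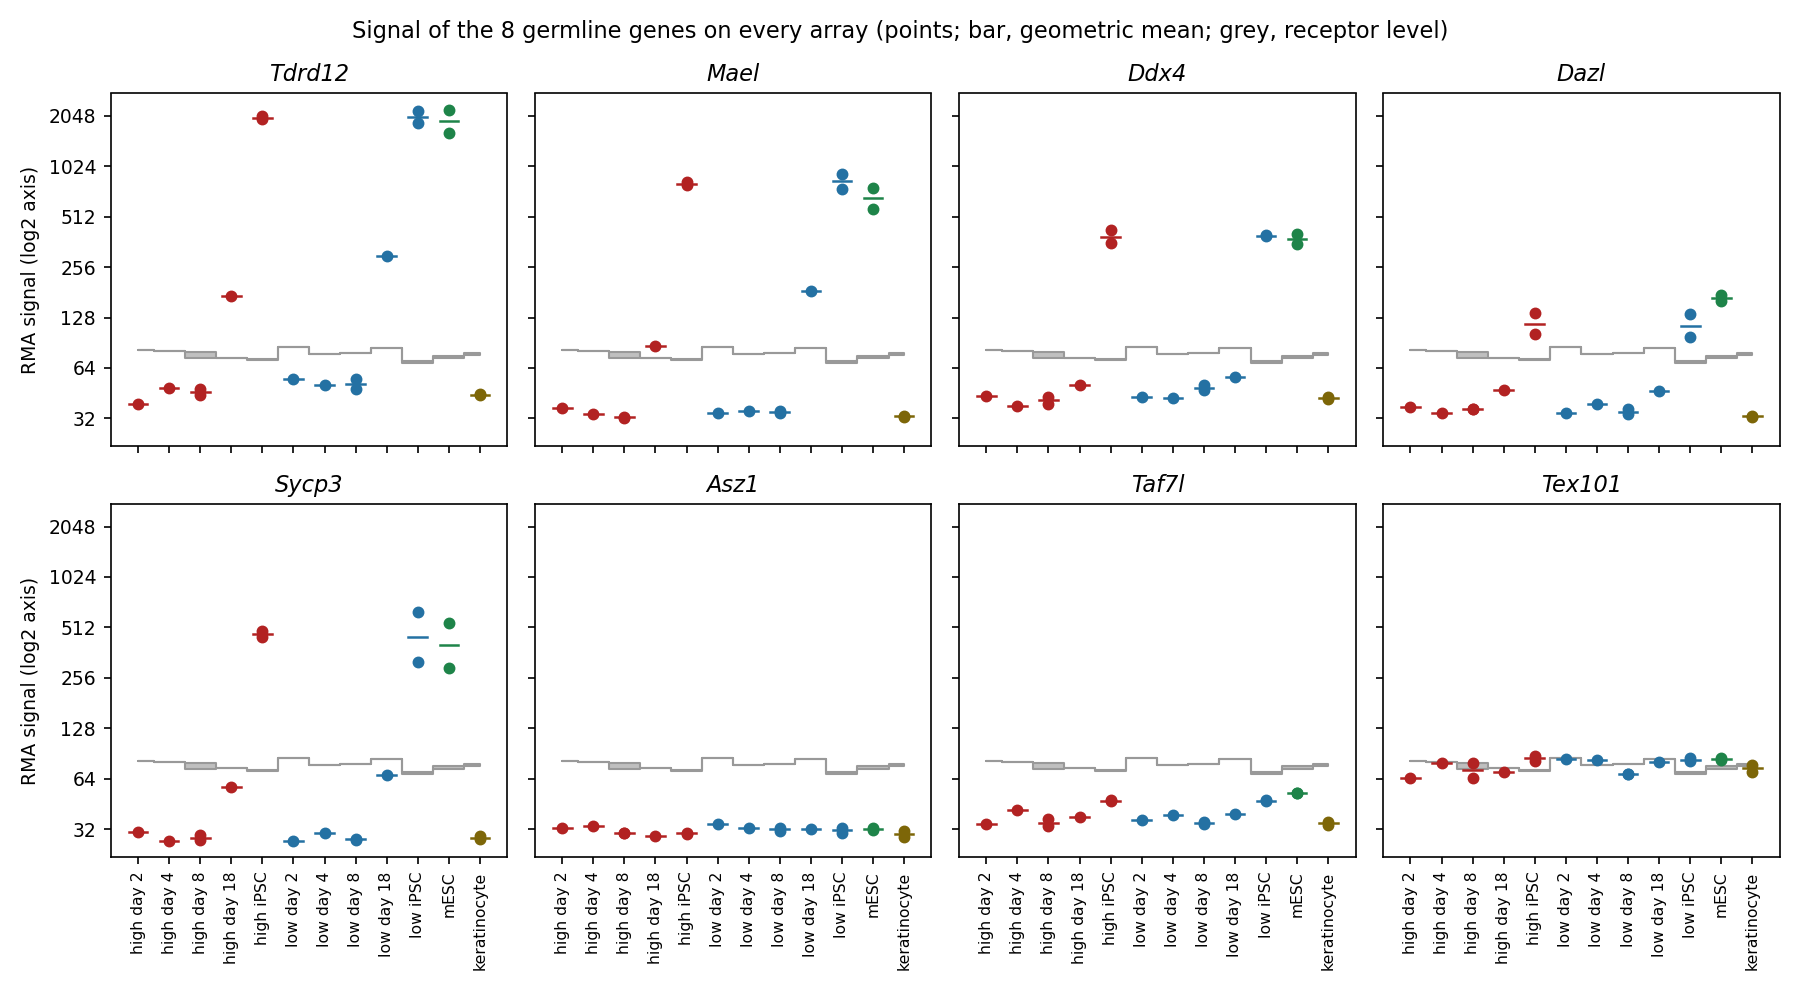
RMA signal (log2 axis) of each of the 8 germline genes on the 18 arrays, with high-KLF4 groups in red, low-KLF4 groups in blue (both by day, then iPSC clones), mESCs in green and keratinocytes in brown. Points are arrays, short bars are geometric means of a group and the grey line or band is the receptor level; Tdrd12, Mael, Ddx4, Dazl and Sycp3 lie above it in clones and mESCs and below it on days 2 to 8, while Asz1 stays between 28.9 and 34.5 on all arrays.

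Among the piRNA pathway genes, Tdrd12, a Tudor domain protein needed for piRNA production in mouse testis (chromosome 7, 35466941 to 35537784), was on in clones, mESCs and day 18 cells. Its signal was 2031 and 1960.0 in the high-KLF4 iPSC clones and 1847 and 2196 in the low-KLF4 clones, with 2229.7 and 1612 in mESCs. On day 8 it was 48.1 and 43.9 in high-KLF4 cells and 48.2 and 55.4 in low-KLF4 cells, and in keratinocytes it was 44.7 and 44.0. Every clone thus lay far above every day 8 array, and the clones and mESCs overlapped. Between iPSC clones and day 8 cells the difference was 5.36 on the log2 scale (SE 0.11, limma adjusted p = 3.77e-08, n = 4 arrays each). In bulk samples such as these, fewer cells with a transcript and less transcript per cell cannot be told apart.

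Mael, which acts in transposon silencing in the nucleus and in germ granules (chromosome 1, 166201385 to 166238744), followed the same pattern. Its signal was 789.8 and 823 in high-KLF4 clones, 751 and 922 in low-KLF4 clones, and 763 and 569.7 in mESCs. Against this, day 8 cells had 32.4 and 32.7 with the high-KLF4 cassette and 34.3 and 35.3 with the low-KLF4 cassette, and keratinocytes had 33.3 and 32.6. The clones again stood wholly above the day 8 arrays, by 4.61 (SE 0.10, limma adjusted p = 4.30e-08). Asz1, a partner of the piRNA machinery at mitochondria (chromosome 6, 18050964 to 18109061), had 30.5 and 30.1 in high-KLF4 clones, 30.6 and 32.4 in low-KLF4 clones and 32.4 and 31.8 in mESCs, against 30.3 and 30.3 in high-KLF4 cells and 32.6 and 31.4 in low-KLF4 cells on day 8. All of these were below the receptor level, and the interval of the difference between clones and day 8 cells ran from -0.13 to 0.11 (limma adjusted p = 0.873).

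The RNA-binding proteins were both higher in clones. Ddx4, the mouse homolog of Vasa and an RNA helicase of germ granules (chromosome 13, 112598333 to 112652633), read 354 and 428 in high-KLF4 clones, 392 and 396 in low-KLF4 clones and 405 and 352 in mESCs. It read 39.2 and 42.9 in high-KLF4 cells and 47.4 and 50.4 in low-KLF4 cells on day 8, and 42.9 and 41.6 in keratinocytes. The difference between clones and day 8 cells was 3.13 (SE 0.08, limma adjusted p = 8.34e-08), with no overlap. Dazl, which binds mRNAs and promotes their translation in germ cells (chromosome 17, 50279393 to 50293620), followed as well. Its signal was 101 and 135 in high-KLF4 clones and 97.5 and 134 in low-KLF4 clones, compared with 36.4 and 36.4 in high-KLF4 cells and 34.0 and 36.3 in low-KLF4 cells on day 8. It read 32.8 and 32.9 in keratinocytes. Dazl was 1.69 higher in clones than on day 8 (SE 0.12, limma adjusted p = 2.19e-05).

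Sycp3, a structural protein of the chromosome axes in meiosis (chromosome 10, 88459587 to 88473236), varied most among pluripotent arrays. It read 489 and 449 in high-KLF4 clones, 317 and 636 in low-KLF4 clones, and 542 and 295 in mESCs. In day 8 cells it read 27.5 and 29.6 with high-KLF4 and 27.7 and 28.1 with low-KLF4, and keratinocytes had 29.2 and 27.9. Despite that spread the clones and the day 8 arrays did not overlap, with a difference of 4.02 (SE 0.24, limma adjusted p = 8.60e-06).

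Small differences were found for the testis genes. Taf7l, a germ cell paralog of a subunit of the basal transcription factor TFIID (chromosome X, 134460116 to 134476505), read 47.7 and 46.9 in high-KLF4 clones, 46.9 and 47.7 in low-KLF4 clones, and 52.9 and 52.9 in mESCs. The day 8 arrays read 36.6 and 33.6 in high-KLF4 cells and 34.3 and 35.1 in low-KLF4 cells, and the keratinocyte arrays 33.9 and 35.4. Although all of these values were below the receptor level, clones were higher than day 8 cells by 0.44 (SE 0.05, limma adjusted p = 0.000323). Tex101, a glycoprotein of the surface of testicular germ cells (chromosome 7, 24668012 to 24672050), had 81.5 and 87.9 in high-KLF4 clones, 84.7 and 81.4 in low-KLF4 clones and 83.4 and 84.8 in mESCs, against 79.9 and 64.5 in high-KLF4 cells and 68.1 and 68.7 in low-KLF4 cells on day 8. The difference of 0.26 (SE 0.08, limma adjusted p = 0.0295) was lost when any 1 of 7 of these 8 arrays was left out (adjusted p up to 0.100) and kept without high-KLF4 day 8 replicate 1 (0.34). Low-KLF4 cells of day 2 had 83.9, inside the range of the clones.

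Together, 7 of the 8 genes were higher in iPSC clones than in day 8 cells and 0 were lower, where 18.7% of all 23410 probes tested were higher and 19.8% lower. Their median difference was 2.41, and that of all probes -0.05. Since Tdrd12, Mael, Sycp3, Ddx4 and Dazl were below the receptor level on every day 8 array, their folds are also given as lower bounds, with that level in place of the day 8 signal. On this scale clones were at least 25.9-fold higher for Tdrd12, at least 10.6-fold for Mael, at least 5.93-fold for Sycp3, at least 5.06-fold for Ddx4 and at least 1.496-fold for Dazl. Without the second day 8 array of both cassettes, which had the lower fibroblast marker signals, 6 were called and Tex101 was not (0.18). Without the first array of both, 7 were called. The day 8 arrays of equal number deviated together in the cassettes, so they were also averaged to 2 day 8 samples, and 7 genes were again called. These settings were chosen after seeing the data. Within cassettes the same contrast called 6 genes in high-KLF4, where 14.7% of all probes were called higher and 13.5% lower, and 6 in low-KLF4, where 10.8% were higher and 8.43% lower. Tex101 was not called within either cassette (limma adjusted p = 0.150 for high-KLF4 and 0.111 for low-KLF4). Tdrd12 differed by 5.44 in high-KLF4 and 5.28 in low-KLF4, and Dazl by 1.69 and 1.70. The difference between cassettes was itself tested. It was called for 0 of the 8 genes, also with 0 at an unadjusted p under 0.05, where 0.154% of all probes were higher and 0.671% lower. Its interval for Ddx4, the gene with the largest estimate (0.24), ran from -0.13 to 0.60, and for Sycp3 from -1.06 to 1.12, so a sizeable difference between cassettes remains within the interval for Sycp3.

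**Figure D2:**
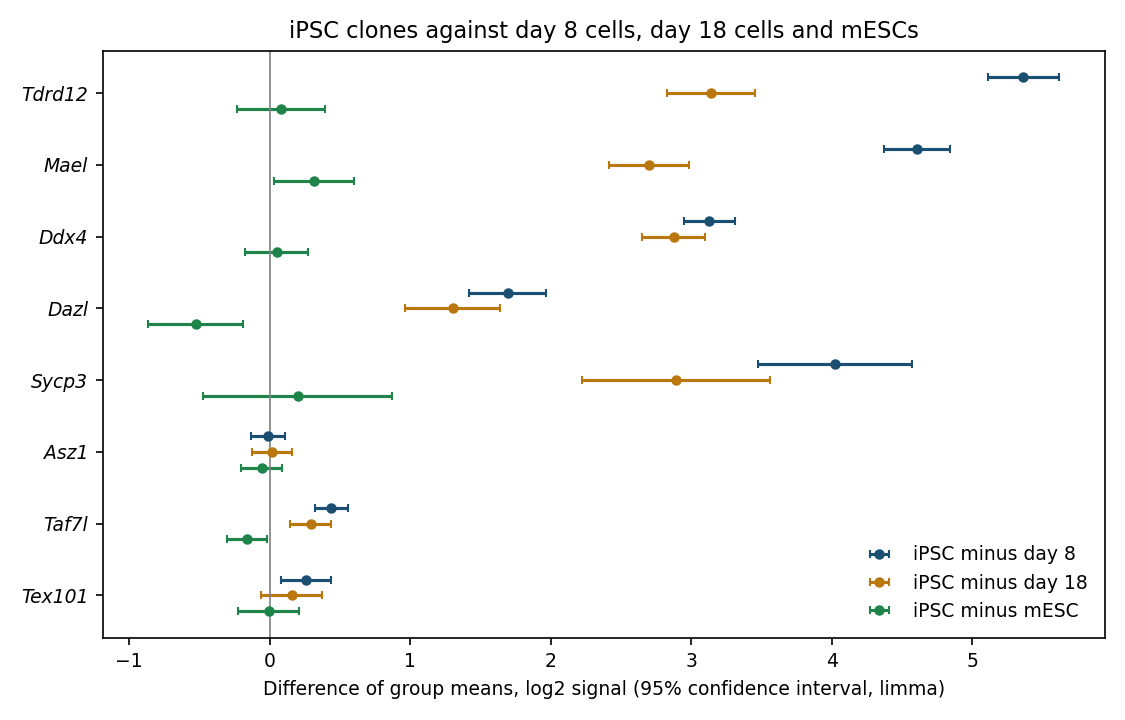
Differences of group means on the log2 scale (horizontal axis) for the 8 germline genes, with 95% confidence intervals from limma, for iPSC clones (n = 4) against day 8 cells (n = 4, dark blue), day 18 cells (n = 2, 1 per cassette, orange) and mESCs (n = 2, green). The contrasts share the clone arrays; Tdrd12 differed by 5.36 from day 8 and by 3.14 from day 18 cells, and all estimates against mESCs lay between -0.53 and 0.31.

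The mESCs gave a second pluripotent group, compared with the same day 8 arrays as the clones. In mESCs 6 genes were higher than in day 8 cells, compared with 16.5% of all probes, by 5.28 for Tdrd12, 4.29 for Mael, 3.82 for Sycp3, 3.08 for Ddx4, 2.22 for Dazl and 0.60 for Taf7l. Against keratinocytes the same mESC arrays were higher for the same 6 genes (20.4% of all probes), between 0.61 for Taf7l and 5.42 for Tdrd12. Between iPSC clones and mESCs, 0 of the 8 genes were called, while 2.02% of all probes were higher in clones and 2.28% lower. At an unadjusted p under 0.05 there were 3. Dazl was the largest of them, at -0.53 in clones relative to mESCs (SE 0.15, limma adjusted p = 0.0929), and its mESC signals of 160 and 173 lay above those of all 4 clones. Mael differed by 0.31 (interval 0.03 to 0.60) and Taf7l by -0.16 (interval -0.31 to -0.02). Day 8 cells and keratinocytes differed in 0 genes, where 15.4% of all probes were higher in day 8 cells and 13.5% lower, with 0 also at an unadjusted p under 0.05. In keratinocytes and both day 8 groups 0 of the 8 genes were on. Signals near or below the receptor level were thus compared, where a difference in transcript can hardly be seen. The estimates lay between -0.08 for Tex101 and 0.14 for Tdrd12.

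The time course asked when the genes came up in cells that still expressed the cassette. Tdrd12 read 39.1, 48.5, 45.9 and 172 on days 2, 4, 8 (geometric mean of 2 arrays) and 18 in high-KLF4 cells, and 55.1, 50.9, 51.7 and 299 in low-KLF4. Mael read 36.8, 34.1, 32.5 and 86.8 in high-KLF4 cells, and 34.4, 35.3, 34.8 and 183.5 in low-KLF4. Both genes were below the receptor level on days 2 to 8 and above it on day 18, in either cassette. Sycp3 was 57.0 on day 18 in high-KLF4 and 67.1 in low-KLF4, against 30.7 and 27.3 on day 2. These day 18 values of Sycp3 were above all earlier ones and still below the receptor level. Dazl was 47.1 in high-KLF4 and 46.7 in low-KLF4 on day 18, against 37.3 and 34.3 on day 2. Ddx4 reached 50.4 in high-KLF4 and 56.6 in low-KLF4 on day 18, against 39.2 to 50.4 on day 8, all below the receptor level.

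In a fit of the 10 mCherry+ arrays with day and cassette as terms, 4 of the 8 genes were higher on day 18 than on day 2, compared with 5.45% of all probes. Tdrd12 rose by 2.29 (SE 0.19, limma adjusted p = 0.00100), Mael by 1.83 (SE 0.26, adjusted p = 0.00663), Sycp3 by 1.10 (SE 0.12, adjusted p = 0.00225) and Dazl by 0.39 (SE 0.10, adjusted p = 0.0387). Of these 4, only Tdrd12 and Mael were above the receptor level on day 18. Sycp3 and Dazl were below it on both days in either cassette. Ddx4 differed by 0.31 (adjusted p = 0.0947), and Asz1, Taf7l and Tex101 by -0.14, 0.13 and 0.02. Since each cassette had a single array on days 2 and 18, the error of this comparison comes from how evenly the cassettes moved and from the day 8 pairs. Dazl was not called when either day 8 array of low-KLF4 or replicate 1 of day 8 high-KLF4 was left out. In the fit of 12 groups the count was 2, Tdrd12 and Mael.

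The iPSC clones were higher than day 18 cells for 6 genes, where 17.1% of all probes were. This contrast uses the same clone arrays as that with day 8. Tdrd12 differed by 3.14 (SE 0.14, limma adjusted p = 5.26e-06), Sycp3 by 2.89, Ddx4 by 2.87, Mael by 2.70, Dazl by 1.30 and Taf7l by 0.29. On the linear scale, Tdrd12 on day 18 was at 8.6% of the mean of the clones in high-KLF4 and at 14.9% in low-KLF4. Mael was at 10.8% in high-KLF4 and 22.1% in low-KLF4. The other genes were below the receptor level on day 18, which gives upper limits only. Sycp3 was at most at 15.8% in high-KLF4 and 18.8% in low-KLF4, Ddx4 at most at 19.0% and 21.4%, and Dazl, with clone signals of 97.5 to 135, at most at 63.1% and 73.7%.

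The same share was read for the other lists, over genes at least 1 higher on the log2 scale in clones than on day 8 and above the receptor level in clones. The 10 pluripotency markers, all above that level on day 18, lay between 20.1% and 80.4% of the clone signal in high-KLF4 (median 44.2%), and between 27.0% and 85.5% in low-KLF4 (median 64.4%). On this scale Tdrd12 and Mael, the 2 members measured on day 18, were below the lowest marker in either cassette, Dppa4 at 20.1% in high-KLF4 and Fbxo15 at 27.0% in low-KLF4. As a share of the log2 rise from day 8 to clones they were not. There the lowest marker was at 28.8% in high-KLF4 and 1.8% in low-KLF4, and the highest germline gene at 35.1% and 52.4%. Medians of this share were 24.7% and 31.6% for the germline genes, with day 8 signals below the receptor level, and 60.5% and 79.7% for the markers. Other germ cell identity genes above the receptor level on day 18 had a median of 52.8% in high-KLF4 (9 genes) and 60.2% in low-KLF4 (9 genes), which overlapped the pluripotency markers. Other meiosis genes had medians of 38.6% (4 genes) in high-KLF4 and 40.7% (6 genes) in low-KLF4, and other piRNA genes 21.8% and 28.6% (3 genes each). Genes below the level on day 18 are not in these medians. This leaves out 1 germ cell identity gene and 3 meiosis genes in each cassette and 1 piRNA gene in high-KLF4. The germ cell identity gene was at most at 31.1% in high-KLF4 and 35.9% in low-KLF4, below the medians of its list. The piRNA gene had an upper limit of 64.3%, above the median of its list, so the direction of the shift is not fixed in general. With 1 day 18 array per cassette the differences between the lists were not tested. Fibroblast markers had summed signals of 33622 for high-KLF4 cells and 34239 for low-KLF4 cells of day 18, against 15393 to 17581 in the clones. All 12 were above the receptor level on day 18, but so were 11 of 12 in the clones of either cassette, and 66.0% to 69.3% of all probes on single arrays. The part of mixed populations in the day 18 values was not tested.

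**Figure D3:**
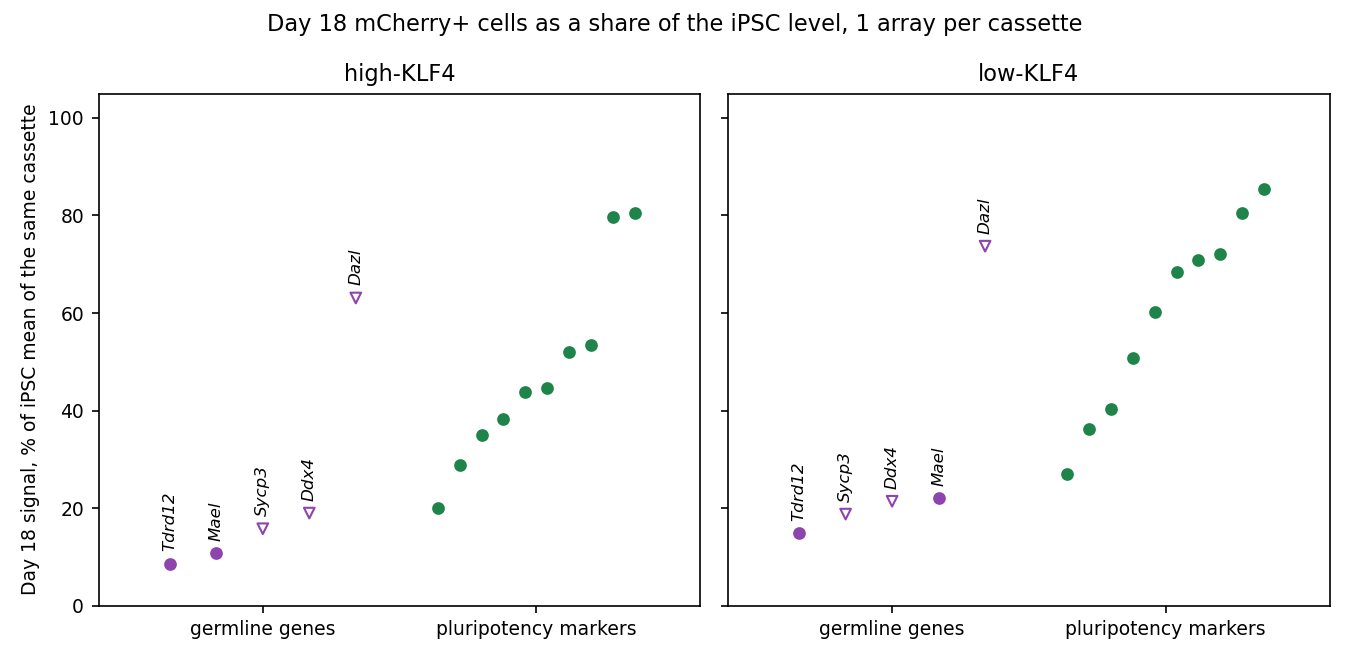
Signal of day 18 mCherry+ cells as a percentage of the geometric mean of the iPSC clones of the same cassette (vertical axis), with high-KLF4 left and low-KLF4 right, for the 5 germline genes at least 1 higher on the log2 scale in clones than on day 8 (purple) and the 10 pluripotency markers (green). Each point is 1 gene on 1 array, filled where it was above the receptor level, and open triangles are upper limits for genes below it; Tdrd12 and Mael lie between 8.6% and 22.1% and the markers between 20.1% and 85.5%.

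For these genes no difference between high-KLF4 and low-KLF4 cells passed the test. On day 8, limma called 0 of the 8 genes between the cassettes, also with 0 at an unadjusted p under 0.05, where 2.71% of all probes were higher in high-KLF4 and 1.29% lower. Since 0 of the 8 genes were on in either day 8 group, this contrast compared signals near or below the receptor level. A difference in transcript can hardly be seen there, so the contrast cannot decide whether the cassettes differ for these genes. Ddx4 had the largest estimate at -0.25 (interval -0.51 to 0.00, limma adjusted p = 0.320), and the interval for Sycp3 ran from -0.74 to 0.81. Over all mCherry+ days, 0 genes were called, where 0.158% of all probes were higher and 0.00427% lower, and 2 had an unadjusted p under 0.05. These were Tdrd12 (-0.34, adjusted p = 0.242) and Ddx4 (-0.16, adjusted p = 0.282). Between clones of the cassettes limma called 0 genes, with 0 at an unadjusted p under 0.05. Over all probes 0% were called in either direction. Estimates for the 8 genes lay between -0.05 and 0.06. On day 18, both Tdrd12 and Mael were lower in high-KLF4 (172 and 86.8) than in low-KLF4 (299 and 183.5), and with 1 array each these differences have no replicate check.

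Over the 12 group means, the range on the log2 scale was 5.69 for Tdrd12, 4.68 for Mael, 4.11 for Sycp3, 3.38 for Ddx4 and 2.34 for Dazl, and 0.63, 0.38 and 0.24 for Taf7l, Tex101 and Asz1. The low ends of these ranges were below the receptor level. The first 5 genes were correlated with each other over the group means (10 pairs, Pearson's r between 0.955 and 0.997, median 0.978). The points share the split between the 3 pluripotent groups and the other 9 groups. Among all other genes, the most similar to Tdrd12 were Dppa4 (r = 0.996), Zfp979 and Mcf2, and those most similar to Mael were Zfp979 (r = 0.996), Qprt and Dppa4. Hpca, Fgf17 and Rasgrp2 were nearest to Ddx4 (r = 0.996 for Hpca). Sohlh2 (r = 0.998), Tex14 and Triml2 were nearest to Dazl, and Rnf17 (r = 0.996), Pnldc1 and Meioc to Sycp3.

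Other genes of the piRNA pathway were divided. Of 18 measured, 8 were higher in iPSC clones than in day 8 cells, 1 was lower and 9 were not called, with a median of 0.14, where 18.7% of all probes were higher and 19.8% lower. Rnf17, a Tudor domain protein of germ cells, was higher by 3.22 (limma adjusted p = 5.23e-07), with 501 and 409.5 in high-KLF4 clones and 445 and 556 in low-KLF4 clones against 44.6 to 61.9 on day 8. Pnldc1, the nuclease that trims piRNA 3′ ends, was higher by 2.64 (adjusted p = 2.23e-07), and Tdrd7, another Tudor domain gene, was lower (log2 difference -0.67, adjusted p = 0.0423). Of the 3 PIWI genes measured, Piwil1 alone was called. It read 79.8 to 87.0 in clones and 61.5 to 76.1 on day 8 (log2 difference 0.24, adjusted p = 0.0489), while Piwil2 differed by -0.18 (adjusted p = 0.449) and Piwil4 by 0.10 (adjusted p = 0.329). The PIWI genes were picked once their values were known.

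Of 28 other meiosis genes, 15 were higher and 0 lower (median 0.31), against 18.7% higher and 19.8% lower among all probes. The largest were Meioc, which is needed for the program of meiotic prophase (3.69, limma adjusted p = 1.99e-07), and Dmc1, the recombinase of meiosis (2.60, adjusted p = 2.95e-06). Meioc read 320 to 436 in the 4 clones and 27.6 to 30.3 on day 8, with 37.6 on day 18 in high-KLF4 and 53.7 in low-KLF4. Sycp2, which pairs with Sycp3 in the axes, differed by 0.04 (adjusted p = 0.556) and stayed between 29.4 and 33.0 on all arrays. Sycp2 was also named after its values were seen. Germ cell identity genes gave 17 higher and 2 lower of 27 (median 0.58), beside the same 18.7% and 19.8% of all probes, led by Dppa3 (3.41, adjusted p = 4.30e-08), known as Stella, and the receptor Kit (2.35, adjusted p = 5.09e-06). The lower ones were Gfra1, a receptor of spermatogonial stem cells (-1.53, adjusted p = 0.0435), and Lhx8, an oocyte transcription factor (-0.25, adjusted p = 0.0298).

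**Figure D4:**
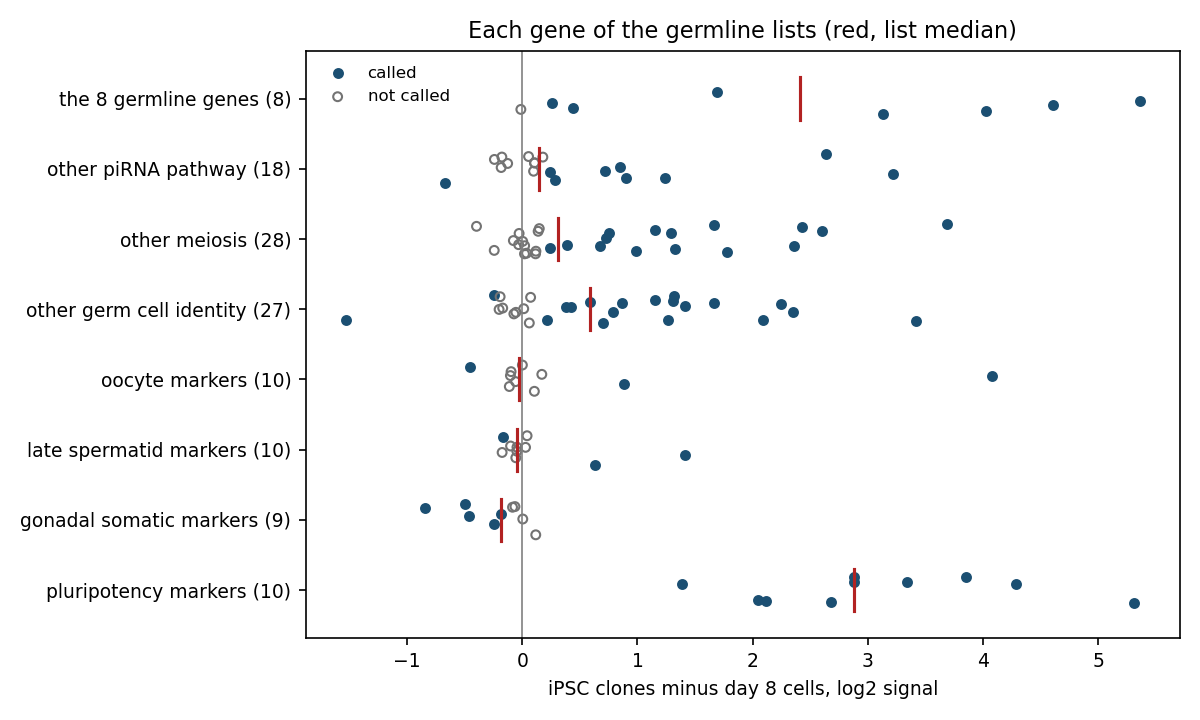
Differences between iPSC clones and day 8 cells on the log2 scale (horizontal axis) for each gene of 8 lists, one list per row with the number of measured genes in brackets. Filled points passed the limma test at an adjusted p under 0.05, open points did not, and red lines are list medians; the median is 2.41 for the 8 germline genes, 0.14 for other piRNA genes, 0.31 for other meiosis genes and 2.88 for pluripotency markers.

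Markers of mature gametes and of gonadal somatic cells were read against the same background, in which 18.7% of all probes were higher in clones and 19.8% lower. For late spermatid and oocyte markers the share called higher was near that background. Of 10 late spermatid markers 2 were higher, 1 lower and 7 not called (median -0.05): Hook1 (1.41) and Odf2 (0.63), which act at microtubule structures, rose, and the fibrous sheath gene Akap4 fell by 0.17. Their summed signal was 2308 to 2577 in clones and 1299.9 to 2239 on day 8, with 4 of the 10 above the receptor level in both. Of 10 oocyte markers 2 were higher, 1 lower and 7 not called (median -0.03). Ooep, of the maternal complex of the egg cortex, was higher by 4.07 (limma adjusted p = 2.78e-08), and Zp3, of the egg coat, by 0.89, while Bmp15 fell by 0.45. The summed signal of this list was 3271 to 3563 in clones and 664 to 1131 on day 8. Of 9 gonadal somatic markers 0 were higher and 5 lower (median -0.19), with Sox9 of Sertoli cells at -0.84 and Cyp17a1 of steroid-producing cells at -0.50.

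All 19 genes of factors known to repress germline genes were above the receptor level in every group, a level that 66.0% to 69.3% of all probes exceeded on single arrays. Of them 10 were higher in iPSC clones than in day 8 cells, 1 was lower and 8 were not called (median 0.34), compared with 18.7% higher and 19.8% lower over all probes. Named by size were Cbx1 (1.26) and Rybp (1.08), of heterochromatin and Polycomb complexes, as the largest rises, and the Polycomb gene Ring1 at -0.45, the one that was lower. Among 8 genes of DNA methylation and its removal, 4 were higher and 1 lower (median 0.77), beside the same shares of all probes. Dnmt3l, the cofactor of the de novo methyltransferases, was higher by 5.03 (limma adjusted p = 6.97e-08), with 2250.5 to 2655 in clones, 815.5 on day 18 in high-KLF4, 1561 on day 18 in low-KLF4 and 56.3 to 112 on day 8. Tet1, which oxidises methylcytosine, was higher by 2.77 (adjusted p = 0.000297), and Tet3, of the same family, was at -2.02 (adjusted p = 0.000299). Both lists were higher in day 8 cells than in keratinocytes for some genes (9 of 19 repressors and 5 of 8 methylation genes, with 15.4% of all probes higher), a contrast in which 0 of the 8 germline genes were called. The part of these lists in the levels of the germline genes was not tested. All 10 pluripotency markers were higher (median 2.88, against 18.7% of all probes), led by Dppa5a (5.31) and Tdgf1 (4.29). With 19.8% of all probes lower, 6 of 12 fibroblast markers were lower (median -1.60), with Dcn at -3.33 and Lum at -2.73, and of 10 keratinocyte markers 7 were lower (median -0.74), with Krt14 at -3.39 and Dsg3 at -2.09.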

How the data were processed

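Affymetrix Mouse Gene 1.0 ST arrays of 18 samples in 12 groups were analysed. The deposited values are signal intensities on a linear scale, which the authors made with RMA (background correction, quantile normalization and summary per transcript cluster) in GeneSpring. They range from 20.2 to 19538.7, and log2 was taken here. Of 28853 probes, 21789 had 1 symbol, 1621 several and 5443 none in the platform annotation used. The 23410 probes with a symbol entered limma 3.58.1 (R 4.3.3; lmFit, eBayes, 12 group means, 6 residual and 2.25 prior degrees of freedom), with Benjamini-Hochberg adjustment over all of them and calls at an adjusted p under 0.05. Change with day used an additive fit of the 10 mCherry+ arrays (5 residual degrees of freedom). Lists of 11 other gene groups gave counts and medians only, and 6 of 175 listed genes had no probe of their own.

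The 8 members, the lists and the tests were chosen with earlier results of these data known. Named genes are the members, the largest 2 rises and 2 falls called in each list between iPSC clones and day 8 cells, and for each member ranging over at least 1 on the log2 scale the 3 genes of highest Pearson's r over group means. Others are said to be named after their values were seen. Nothing in the labels states separate cultures for the 2 arrays of the day 8, mESC and keratinocyte groups, while the study's methods describe independent experiments. On simulated data the fit of iPSC clones minus day 8 cells (23410 probes) found 85 of 100 probes changed by 1 and 97 of 100 changed by 2, with 8 false calls, and that of day 18 minus day 2 found 70 and 88, with 6. The simulated noise was independent between arrays, with 1 SD per probe. It lacked the wider spread and the shared deviation of the day 8 arrays, so these rates need not hold for the real contrasts. Alternatives were a dim-probe filter, a second quantile normalization, limma-trend, fits of the compared arrays alone, a replicate block, other receptor levels, averaging day 8 arrays of equal number and leaving out arrays. Promoter windows are from RefSeq (GRCm38.p6). Python 3.11.15, pandas 2.3.3, numpy 2.4.6 and matplotlib 3.10.9 were used. MEF, day 6 and TROP2-sorted arrays were not analysed here.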

Additional observations from a re-analysis of the deposited data

Results flagged for a closer look

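An interaction test in limma asked whether the difference between iPSC clones and day 8 cells was unequal in the cassettes. It called 0 of the 8 germline genes and 4 of the genes named by size in the other lists. For Dppa5a, a pluripotency gene, the difference between clones and day 8 cells was smaller in high-KLF4 than in low-KLF4 by 2.47 on the log2 scale (difference of differences -2.47, adjusted p = 0.00167). The keratinocyte genes Krt14 (-4.05, adjusted p = 0.000584) and Dsg3 (-3.70, adjusted p = 0.0165) and the oocyte gene Zp3 (-2.84, adjusted p = 0.00177) also differed. For each of these 4 genes the day 8 signal was the higher in high-KLF4, for example 438 and 473 for Zp3 in high-KLF4 cells against 67.3 and 68.5 in low-KLF4 cells. The pluripotency markers did not all go this way. Of the 10, the test called 3 lower, with Dppa5a among them, and 1 higher, where 0.671% of all probes were lower and 0.154% higher. The higher one was Nanog (1.42, limma adjusted p = 0.00484), named after its values were seen. Of the 27 other germ cell identity genes 1 was called, Ddx25, which was higher (0.98, adjusted p = 0.0121). Ddx25 was also named after its values were seen. Of the 18 other piRNA genes and the 28 other meiosis genes 0 were called.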

How the results depend on the processing

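Of the counts of called genes under the alternatives, 135 kept within 1.5 times the main count and 8 did not. Without the 30% dimmest probes, only Tdrd12, Ddx4 and Mael of the 8 genes were tested. The count was then 3 for iPSC clones against day 8 cells, for each cassette alone, for iPSC clones against day 18 cells and for mESCs against day 8 cells and against keratinocytes, and 2 for day 18 against day 2. A fit of all 18 arrays in 12 groups, chosen after seeing the data, also gave 2 for day 18 against day 2. Leaving out single arrays gave 6 to 7 genes for clones against day 8 cells and for high-KLF4 clones against high-KLF4 day 8, 6 in low-KLF4, 6 for clones against day 18, 6 to 7 for mESCs against day 8 cells, 6 for mESCs against keratinocytes and 3 to 4 for day 18 against day 2. It gave 0 for clones against mESCs, day 8 cells against keratinocytes and every contrast of the cassettes. Where this left a group with 1 array, its spread was taken from the other groups.

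For single genes 102 values kept direction and call. Asz1 lay near 0 and changed sign to 0.022 with the second quantile normalization and to 0.0025 without replicate 1 of both day 8 groups. Its range over left-out arrays was -0.033 to 0.0085. Tex101 was no longer called in 9 alternatives, at 0.18 to 0.29 on the log2 scale and adjusted p of 0.0516 to 0.100. Dazl lost its on pattern with the 99th percentile of the receptor probes and with the array median as the level, which left 4 genes. The cause was not tested for either gene.

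The day 8 arrays of the cassettes deviated together by number (correlation of replicate differences 0.74), whereas the other group pairs did not (-0.03 to 0.02). The day 8 arrays of equal number therefore shared a deviation, and averaging them across the cassettes to 2 day 8 samples, chosen after seeing the data, gave 7 genes for clones against day 8 cells, 6 for mESCs against day 8 cells and 0 for day 8 cells against keratinocytes. No number paired the samples of the other groups. A fit with the replicate number as a block gave the same counts as without: 0 between the cassettes on day 8, 6 for mESCs against keratinocytes, 6 for mESCs against day 8 cells and 0 for day 8 cells against keratinocytes. The choice among several probes of a gene could not be varied for the 8 genes, since each of them had 1 single-symbol probe. Some genes of the other lists had more, such as Dppa3 and Hormad1 with 2 each. For these only the probe with the highest mean was read. The pooled SD of log2 signal over all probes was 0.32 and 0.34 in the day 8 groups and 0.11 to 0.16 in the others. A spread shared by all groups may thus be too small for contrasts with day 8 over probes in general. The 8 genes varied in this. The SD of Sycp3 was 0.08 (high-KLF4) and 0.01 (low-KLF4) on day 8, against 0.71 in low-KLF4 clones and 0.62 in mESCs. For Sycp3 the shared spread is thus wide for day 8. Tex101 went the other way, with 0.22 in high-KLF4 on day 8 and 0.08 in high-KLF4 clones.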

Other observations

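Further germline genes separated iPSC clones from mESCs, although the 8 described above did not pass that test. Of the other piRNA genes 1 was higher in clones and 4 were lower, of the other meiosis genes 3 and 5, and of the germ cell identity genes 1 and 6, beside 2.02% of all probes higher and 2.28% lower. Piwil4, a PIWI protein of fetal germ cells, read 66.5 and 69.7 in high-KLF4 clones and 67.0 and 68.1 in low-KLF4 clones against 148 and 127 in mESCs (log2 difference -1.02, limma adjusted p = 0.000799), and its clone values overlapped those of day 8. Hormad1, of the meiotic chromosome axis, read 184 to 261 in the 4 clones against 541 and 599.8 in mESCs (-1.37, adjusted p = 0.00573). In the other direction, Dppa3 read 609.96 to 730.2 in the clones against 134 and 147 in mESCs (2.24, adjusted p = 2.66e-05), and Tex15, a meiosis and piRNA factor, 286 to 422 against 84.6 and 86.9 (1.99, adjusted p = 0.00170). The mESCs were a single line, and the difference between clones and that line cannot be told apart from a difference between origins.

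Piwil2, the PIWI protein of spermatogonia, was the only one of the 18 other piRNA genes called between the cassettes on day 8. Over all probes 2.71% were higher in high-KLF4 and 1.29% lower. Piwil2 read 321 and 606 in high-KLF4 cells against 96.5 and 112 in low-KLF4 cells (2.09, limma adjusted p = 0.00398). It read 178 in high-KLF4 and 139.8 in low-KLF4 on day 18, 177 to 212 in the clones and 233 and 269 in mESCs. Its day 8 signal in high-KLF4 was therefore above that of all clones and mESC arrays, while the 8 germline genes were at their low level in the same cells. Of the 27 other germ cell identity genes 2 were called in this contrast, both lower in high-KLF4. They were Kit (-0.94, limma adjusted p = 0.0255) and Ddx25 (-0.76, adjusted p = 0.00290). Of the 28 other meiosis genes 0 were called. The genes in both paragraphs were chosen after their values were seen.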
